A study of Homo sapiens with 12 samples.

Results

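The TGF-beta and BMP pathway genes described here are 43 genes chosen by symbol, of 28747 Ensembl gene identifiers counted in 12 RNA-seq libraries. They hold 10 ligands, 3 latency proteins, 4 antagonists, 10 receptors, 6 signaling SMADs, a group of 6 with the inhibitory SMADs, SMURF ubiquitin ligases and SKI corepressors, and 4 ID genes. All 43 symbols were found in the table, each under 1 identifier. The libraries are from DU145, an established androgen receptor-negative human prostate cancer cell line. The study compared cells with a stable knockdown hairpin, labelled shSigma, with control cells, each as a bulk adherent culture and as tumor spheres, which are 3D colonies grown without attachment in serum-free medium with FGF2 and EGF. The 4 groups of 3 libraries are adherent shCtrl, adherent shSigma, tumor sphere shCtrl and tumor sphere shSigma, where shCtrl is the control hairpin, and both hairpins were delivered by lentivirus. The study works with more than one hairpin and does not state which the sequenced shSigma cells carried, so an effect of the hairpin, of the selected line and of the targeted gene cannot be told apart.

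TGF-beta, activin and BMP ligands are secreted dimers that bring together type I and type II serine/threonine kinase receptors. The receptors phosphorylate SMAD2 and SMAD3 on the TGF-beta and activin side and SMAD1, SMAD5 and SMAD9 on the BMP side, which enter the nucleus with SMAD4. SMAD6 and SMAD7 are induced by the pathway and inhibit it, and the ID genes are classic targets of BMP signaling. TGF-beta slows the growth of normal prostate epithelium and is known for its part in epithelial-mesenchymal transition in carcinoma.

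Expression is given as CPM, the normalised count scaled to the effective library size, with mean ± SD of 3 libraries for a group. SE is the standard error of a fitted log2 fold change, and q is the p-value of edgeR's quasi-likelihood test after Benjamini-Hochberg adjustment over every gene that entered the fit. Libraries held 16472722 to 26957777 counts. All pairs of replicates differed by more than counting noise. The epithelial markers EPCAM, CDH1, KRT8, KRT18 and KRT19 were detected in all groups with summed means of 909 to 2314 CPM, and the summed means of 6 fibroblast, 5 blood cell and 3 endothelial markers were at most 2.29, 1.62 and 1.01 CPM. Of 4 androgen receptor axis markers, 3 or 4 were at or under 3 counts in every group. After knockdown in adherent cells EPCAM and CDH1 were called lower, at -2.99 (q = 3.48e-06) and -1.23 (q = 7.86e-05), and KRT8, KRT18 and KRT19 higher, at 0.76 (q = 0.00454), 0.58 (q = 2.20e-04) and 1.91 (q = 0.00573). In tumor spheres EPCAM, CDH1, KRT8 and KRT18 were called lower, at -3.31 (q = 1.02e-11), -4.71 (q = 3.46e-11), -0.21 (q = 0.0304) and -0.44 (q = 2.11e-05), and KRT19 had 0.13 (q = 0.0944). The tumor sphere call of KRT8 was lost without tumor sphere shSigma replicate 2 (-0.22, q = 0.0627), tumor sphere shSigma replicate 3 (-0.16, q = 0.138) and tumor sphere shCtrl replicate 1 (-0.12, q = 0.130), and KRT19 was called higher there without tumor sphere shCtrl replicate 1 (0.18, q = 0.0390). In bulk RNA, fewer cells of a kind and less RNA per cell cannot be told apart, and the part of these marker levels in the pathway results was not tested. GC content moved with the comparisons. Across genes, the log2 fold change of tumor spheres over adherent cells had a Spearman rho with GC content of 0.418 in shCtrl and 0.370 in shSigma cells, and the knockdown had 0.238 in adherent cells and 0.145 in tumor spheres. Within groups, the deviation of single libraries from their group mean also followed GC content, with rho from -0.680 in adherent shCtrl replicate 1 and -0.674 in adherent shSigma replicate 3 to 0.738 in adherent shCtrl replicate 3. Results were therefore also computed with a GC trend removed from each library. Values that changed are given beside the gene for many genes but not for all, so a gene without such a value is not thereby unchanged.

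Of the 43 genes, 37 had enough counts to be tested in all 5 comparisons, FST was tested in 3 of them, and BMP2, INHBB, GREM1, ID3 and ID4 were tested in none. The smallest count read as present was set at over 3 counts, which is 0.115 to 0.176 CPM depending on the library. ID3 had 1 count in adherent shCtrl replicate 3 and 0 in the other libraries. ID4 had at most 1 count and BMP2 at most 1 count in any library. INHBB, a subunit of activin B, had at most 5 counts. GREM1, which encodes the BMP antagonist gremlin 1, had 30 counts in adherent shSigma replicate 2 and 0 counts in the other 11 libraries. Reads were not marked by molecule, and a floor in counts speaks for counting error alone. Exons of 13 of the 43 genes overlap exons of another counted gene, in 12 of them only on the other strand. They are TGFB1, TGFB2, BMP6, INHBA, GDF11, ACVR2A, SMAD1, SMAD5, SMURF1, SMURF2, LTBP3, GREM1 and CHRD. The use of strand in counting is not given in the sources used here, so the counts of these 13 genes are less certain.

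Promoter sequences are shown for SMAD6, which was higher after knockdown in both cultures, and for ID1 and ID2, which had the lowest log2 fold changes of tumor spheres over adherent cells among the tested genes of the 43. They are the 250 bases before the start that RefSeq gives on GRCh38.p14, 5′ to 3′ on the coding strand, in lower case with matches to the motifs searched in capitals.
SMAD6, chr15:66701986-66702235, plus strand: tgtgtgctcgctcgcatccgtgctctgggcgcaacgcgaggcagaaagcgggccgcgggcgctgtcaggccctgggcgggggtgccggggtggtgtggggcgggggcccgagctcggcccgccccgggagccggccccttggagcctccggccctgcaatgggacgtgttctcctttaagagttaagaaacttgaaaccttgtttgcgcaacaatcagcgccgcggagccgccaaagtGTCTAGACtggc
ID1, chr20:31605039-31605288, plus strand: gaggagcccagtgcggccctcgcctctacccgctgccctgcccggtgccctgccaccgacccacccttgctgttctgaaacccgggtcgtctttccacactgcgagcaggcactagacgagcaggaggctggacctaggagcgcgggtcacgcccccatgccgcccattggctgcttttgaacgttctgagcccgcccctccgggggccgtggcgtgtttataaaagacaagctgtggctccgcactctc
ID2, chr2:8681806-8682055, plus strand: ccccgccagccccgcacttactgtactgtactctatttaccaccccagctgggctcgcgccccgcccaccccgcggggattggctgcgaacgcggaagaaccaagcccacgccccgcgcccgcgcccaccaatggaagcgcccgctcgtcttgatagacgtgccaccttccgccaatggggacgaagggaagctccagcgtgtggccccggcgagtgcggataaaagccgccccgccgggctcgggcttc
The motifs searched were the palindromic SMAD-binding element GTCTAGAC, the GC-rich SMAD motif GGCGCC, and CAGACA with its reverse complement TGTCTG, on both strands. The SMAD6 window holds GTCTAGAC with its first base 12 bases before the start, and 64 of 35116 promoter windows of this length (0.182%) hold this motif. GGCGCC was found in 16.4% and CAGACA in 13.6% of all windows. The ID1 and ID2 windows hold none of the 3 motifs. Windows were found for 40 of the 43 genes, 71 windows in all since some genes have several starts, and SMAD6 was the only gene among them with GTCTAGAC. SMAD6 is 1 of 7 genes called higher after knockdown in both cultures. Of the others, SMAD7, SMURF1 and GDF11 have none of the 3 motifs in their windows. Those of BMPR2 and SKIL hold GGCGCC, that of BMPR2 also holds CAGACA, and BMP7 had no window. A match says only that these letters stand in the window, and the lack of one holds for these 250 bases only. The RefSeq start of SMAD6 is that of GENCODE v44, while for ID1 and ID2 GENCODE places the first base of the gene upstream of the RefSeq start, so that the ID2 window lies within the gene as GENCODE bounds it.

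In adherent shCtrl cells the order of the levels per kilobase of exon was led by ID1, an inhibitor of basic helix-loop-helix factors, with 50.0 ± 11.2 CPM per kb. SMURF2, TGFBR2 and SMAD3 followed with 23.7 ± 1.60, 23.3 ± 0.383 and 22.3 ± 1.09 CPM per kb, and these neighbours differed by less than their spread. ID2 and SMAD5 came next with 14.4 ± 1.01 and 13.1 ± 0.305 CPM per kb. Of the ligands, TGFB1 had the highest level with 11.6 ± 2.78 CPM per kb, followed by TGFB2 with 3.83 ± 0.187 and GDF11 with 3.55 ± 0.0176 CPM per kb. In tumor sphere shCtrl cells TGFBR2 led the order with 36.6 ± 1.94 CPM per kb, followed by LTBP1 with 17.7 ± 1.64 CPM per kb, and ID1 had 5.82 ± 0.863 CPM per kb. The length used is that of all annotated exons of a gene joined, which can exceed that of the transcripts present. For SMAD2 it is 36426 bases. SMAD2 had 295, 300 and 275 CPM in the adherent shCtrl libraries but only 7.96 ± 0.370 CPM per kb. The order therefore depends on this choice of length.

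The knockdown was compared with the control hairpin in each culture on its own, to ask which genes differ between the lines. The inhibitors SMAD6 and SMAD7 and the ligand BMP7 rose in both cultures, and the ligand BMP6 and the latency protein LTBP1 fell in both. TGFB2, TGFB3 and the antagonist CHRD were called in opposite directions in the 2 cultures, and receptors differed by less than 1 on the log2 scale. Genes with q under 0.05 are named called. In adherent cells 12 of the 37 genes tested were higher and 8 lower, which is 54.1% of them, where 50% of all genes tested were called (22.3% higher, 27.7% lower). In tumor spheres 19 of 38 were higher and 7 lower, 68.4% against 61.1% of all genes (30.2% higher, 30.9% lower). Groups did not overlap for 23 of 37 genes in adherent cells and 25 of 38 in tumor spheres, where this held for 57.9% and 66.8% of all genes, and 4 higher and 3 lower genes in adherent cells and 5 higher and 3 lower genes in tumor spheres changed by over 1 on the log2 scale as well, where 13.7% and 13.1% of all genes did. The median log2 fold change was 0.15 in adherent cells and 0.22 in tumor spheres, beside -0.014 and 0.0015 over all genes tested. The share called was near the background in both cultures, so these counts are no result about the pathway as a whole. Of the 37 genes tested in both cultures, 7 were higher in both (BMP7, BMPR2, GDF11, SKIL, SMAD6, SMAD7 and SMURF1), 3 were lower in both (ACVR2B, BMP6 and LTBP1), and 6 were called in opposite directions (CHRD, LTBP2, SMAD3, SMAD5, TGFB2 and TGFB3). Of these 6, CHRD, LTBP2, SMAD3 and TGFB2 lost the adherent call in several fits that left out 1 library, as given below. Leaving out 1 library moved the count of lower genes in adherent cells from 8 to 4 (without shSigma replicate 1, shSigma replicate 2 or shCtrl replicate 2) or 5 (without shCtrl replicate 1), and the number called there from 20 to 13 without shSigma replicate 1 or shCtrl replicate 2. The 10 genes called in the same direction make up 50.0% of the calls in adherent cells and 40% of those in tumor spheres among these 37 genes. The matching shares over all genes were not computed, so the counts of shared and opposite calls are no result about the pathway either.

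**Figure D1:**
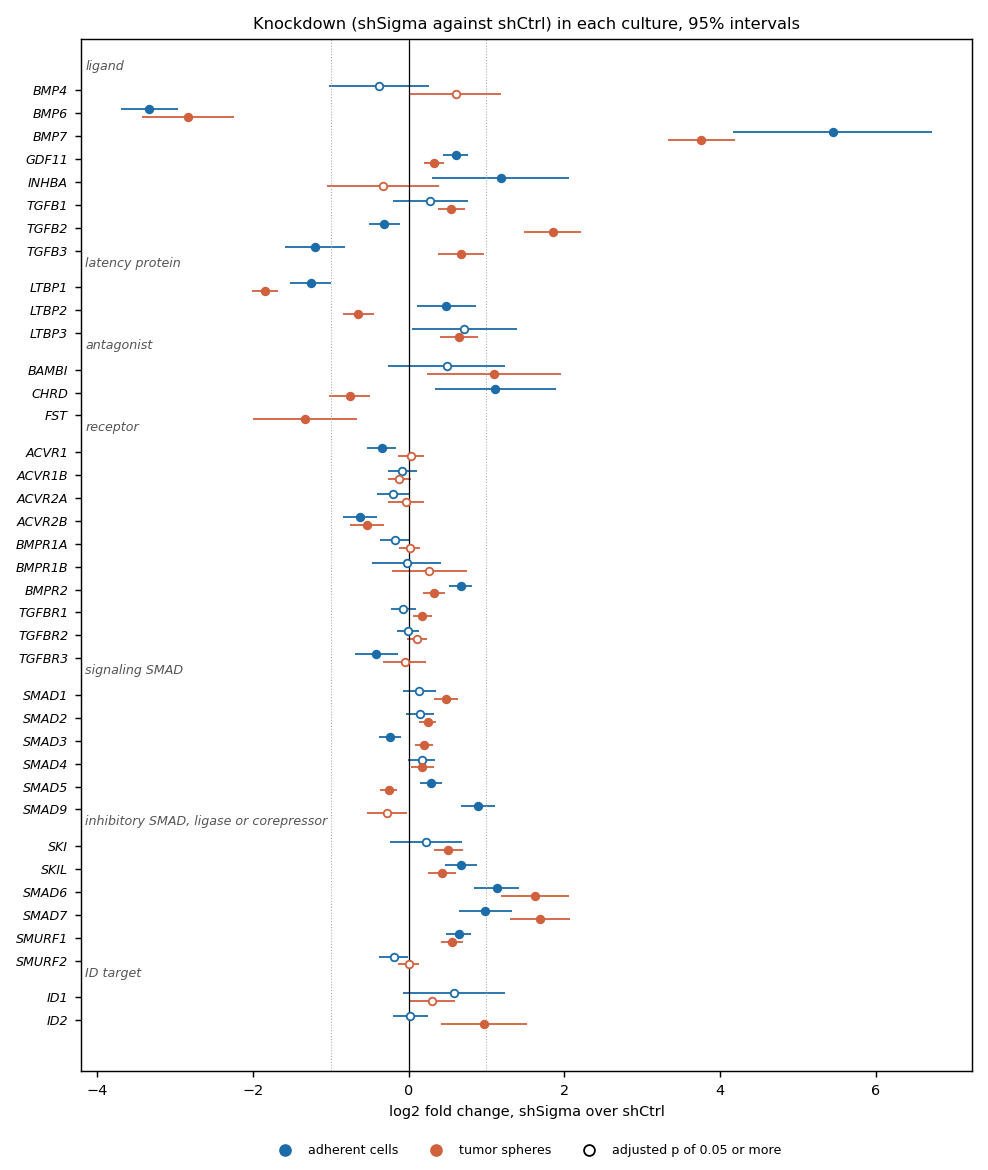
Log2 fold change of shSigma over shCtrl (x axis) for each tested gene (y axis, grouped by role) in adherent cells (blue) and tumor spheres (orange). Points are edgeR estimates, bars 95% intervals, open points have q of 0.05 or more, and dotted lines mark 1 and -1. BMP7 lies farthest to the right and BMP6 farthest to the left in both cultures, while the receptors lie close to 0.

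The BMP ligands BMP6 and BMP7 changed the most, in opposite directions. BMP6 (ENSG00000153162, chromosome 6, 7726099 to 7881728 on GRCh38 by GENCODE v44, as for all gene positions here), a BMP known for its role in iron homeostasis, had 7.68, 7.36 and 7.18 CPM in the adherent shCtrl libraries and 0.667, 0.768 and 0.868 CPM in the adherent shSigma libraries. In tumor spheres it had 1.99, 2.04 and 2.37 CPM in shCtrl and 0.302, 0.318 and 0.265 CPM in shSigma libraries. Every shSigma library lay below every shCtrl library of its culture, and the tumor sphere shSigma libraries held only 5 or 6 counts each. BMP6 fell, with a log2 fold change of -3.33 (SE 0.155, q = 8.16e-06) in adherent cells, which is 10-fold lower, and of -2.83 (SE 0.269, q = 2.96e-06) in tumor spheres, which is 7.13-fold lower. Its exons overlap those of TXNDC5 on the other strand. BMP7 (ENSG00000101144, chromosome 20, 57168753 to 57266641), a BMP of kidney and bone development, was close to absent from shCtrl cells, with 4, 0 and 10 counts in adherent libraries (0.154, 0 and 0.395 CPM) and 11, 13 and 24 counts in tumor sphere libraries (0.644, 0.718 and 1.21 CPM). In shSigma cells it had 9.28, 8.60 and 8.10 CPM in adherent and 10.6, 12.7 and 12.5 CPM in tumor sphere libraries. The groups did not overlap in either culture. BMP7 rose by 5.44 (SE 0.529, q = 3.00e-04) in adherent cells, with a 95% interval of 4.17 to 6.72, and by 3.76 (SE 0.196, q = 2.05e-08) in tumor spheres, or 13.6-fold. Removing the GC trend left both ligands called, BMP6 at -3.42 (q = 6.28e-07) and -2.88 (q = 3.11e-07), and BMP7 at 5.34 (q = 4.43e-06) and 3.70 (q = 2.91e-10).

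The TGF-beta ligands TGFB2 and TGFB3 moved in opposite directions in the 2 cultures. TGFB2 (ENSG00000092969, chromosome 1, 218345336 to 218444619), which encodes TGF-beta 2, had 22.2, 24.4 and 23.0 CPM in adherent shCtrl and 19.8, 18.1 and 20.8 CPM in adherent shSigma libraries. Tumor sphere levels were 2.52, 2.65 and 3.17 CPM in shCtrl and 8.77, 12.2 and 9.38 CPM in shSigma libraries. All shSigma libraries were a little lower in adherent cells and all were higher in tumor spheres. The log2 fold change was -0.31 (SE 0.0855, q = 0.0185) in adherent cells and 1.85 (SE 0.168, q = 2.02e-06) in tumor spheres. The adherent call was lost without shSigma replicate 1 (-0.25, q = 0.154), shSigma replicate 2 (-0.19, q = 0.212), shCtrl replicate 1 (-0.28, q = 0.0677) and shCtrl replicate 2 (-0.21, q = 0.215). TGFB3 (ENSG00000119699, chromosome 14, 75958097 to 75983011), which encodes TGF-beta 3, had 4.30, 5.16 and 4.46 CPM in adherent shCtrl and 1.76, 2.25 and 2.32 CPM in adherent shSigma libraries. In tumor spheres these were 3.92, 4.86 and 5.34 and 8.02, 7.47 and 7.20 CPM, again without overlap and in the other direction. TGFB3 fell at -1.20 (SE 0.163, q = 7.35e-04) in adherent cells and rose by 0.67 (SE 0.136, q = 0.00112) in tumor spheres. The 40 tested genes nearest to TGFB3 on chromosome 14 had median log2 fold changes of -0.43 and -0.42.

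Other ligands changed less or were at low levels. GDF11, a relative of myostatin, had 31.3 ± 0.155 CPM in adherent shCtrl and 49.8 ± 3.34 CPM in adherent shSigma cells (log2 ratio 0.61, q = 3.13e-04). It also rose in tumor spheres, from 52.5 ± 1.07 to 66.0 ± 1.12 CPM (log2 ratio 0.33, q = 4.12e-04). TGFB1, which encodes the most widely expressed TGF-beta, rose in tumor spheres from 32.4 ± 1.51 to 47.4 ± 3.87 CPM (log2 ratio 0.55, q = 8.42e-05), and had 0.28 (q = 0.293) in adherent cells, where its 95% interval was -0.20 to 0.76. INHBA, the subunit of activin A, had 10, 9 and 5 counts in adherent shCtrl and 21, 12 and 14 counts in adherent shSigma libraries, and 14, 19 and 33 and 25, 12 and 18 counts in the tumor sphere groups. The adherent groups did not overlap and the tumor sphere groups did, with log2 fold changes of 1.18 (q = 0.0328) and -0.33 (q = 0.410). The adherent call of INHBA was lost without shSigma replicate 1 (1.00, q = 0.107), shCtrl replicate 2 (1.37, q = 0.0508) and shCtrl replicate 3 (0.91, q = 0.0882). BMP4 had 1.08, 1.02 and 0.789 CPM in adherent shCtrl and 0.714, 0.973 and 0.627 CPM in adherent shSigma libraries, and 0.937, 1.49 and 1.92 and 2.82, 1.75 and 2.12 CPM in the tumor sphere groups. The BMP4 groups overlapped in both cultures, and its log2 fold changes of -0.38 (q = 0.290) and 0.60 (q = 0.0706) did not pass the test, but without tumor sphere shCtrl replicate 3 (0.88, q = 0.0298) it did.

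**Figure D2:**
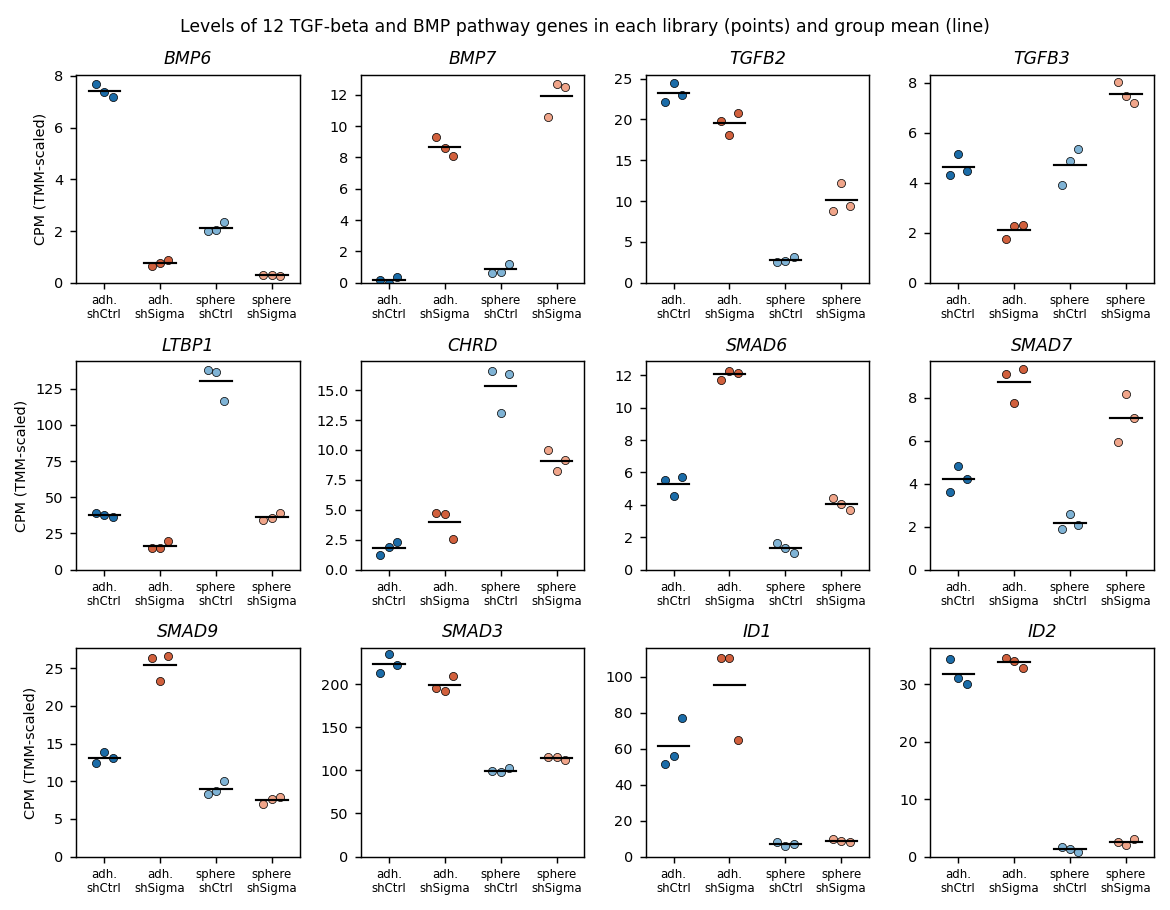
CPM (y axis, from 0) of 12 genes in each of the 12 libraries. Points are libraries, ordered by replicate number within a group, and lines are group means of 3 libraries. The shSigma points of SMAD6 and SMAD7 lie above the shCtrl points in both cultures, and ID1 and ID2 are low in all tumor sphere libraries.

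The latent TGF-beta binding proteins hold TGF-beta in the extracellular matrix, and LTBP1 fell in both cultures. LTBP1 (ENSG00000049323, chromosome 2, 32946953 to 33399509) had 39.0, 37.8 and 36.6 CPM in adherent shCtrl and 15, 14.8 and 19.9 CPM in adherent shSigma libraries. The tumor sphere libraries had 138, 137 and 117 CPM in shCtrl and 34.6, 35.6 and 39.1 CPM in shSigma libraries. The groups did not overlap, and the log2 fold changes were -1.26 (SE 0.114, q = 1.15e-04) and -1.84 (SE 0.0774, q = 3.48e-09). LTBP2, which unlike LTBP1 does not bind latent TGF-beta, had 22.7, 24.5 and 30.5 CPM in adherent shCtrl and 38.9, 42.9 and 31.3 CPM in adherent shSigma libraries. Its tumor sphere levels were 62.7, 51.6 and 56.3 CPM in shCtrl and 34.7, 40.1 and 34.5 CPM in shSigma libraries. LTBP2 was called higher in adherent cells, at 0.49 (q = 0.0381), and lower in tumor spheres, at -0.64 (q = 6.91e-05). The adherent call of LTBP2 was lost without shSigma replicate 1 (0.52, q = 0.0623), shSigma replicate 2 (0.44, q = 0.0656), shCtrl replicate 1 (0.45, q = 0.0516) and shCtrl replicate 2 (0.50, q = 0.0728). LTBP3 had 32.0, 45.0 and 57.2 CPM in adherent shCtrl and 84.1, 89.2 and 54.9 CPM in adherent shSigma libraries, where shSigma replicate 3 lay within the shCtrl range. In tumor spheres these were 127, 96.8 and 114 and 198, 173 and 159 CPM, without overlap. The log2 fold changes of LTBP3 were 0.72 (q = 0.0737) and 0.64 (q = 6.92e-04). The adherent difference passed the test without shSigma replicate 3 (0.92, q = 0.0166), and with the GC trend removed, at 0.34 (q = 0.0120). LTBP3 has the highest GC content of the 43 genes, 67.7% in its longest transcript.

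Among the antagonists, CHRD, which encodes the BMP-binding protein chordin, was called in opposite directions. CHRD (ENSG00000090539, chromosome 3, 184380054 to 184390736) had 1.19, 1.86 and 2.29 CPM in adherent shCtrl and 4.76, 4.66 and 2.56 CPM in adherent shSigma libraries. In tumor spheres it had 16.6, 13.1 and 16.4 CPM in shCtrl and 9.98, 8.21 and 9.17 CPM in shSigma libraries. The log2 fold changes were 1.11 (SE 0.329, q = 0.0262) and -0.76 (SE 0.122, q = 2.14e-04), and the groups did not overlap in either culture. The adherent call was lost without shSigma replicate 1 (1.02, q = 0.0637), shSigma replicate 2 (1.04, q = 0.0620) and shCtrl replicate 2 (1.19, q = 0.0582). Without the GC trend CHRD had 0.80 (q = 9.78e-04) and -1.03 (q = 2.69e-07). FST, which encodes the activin-binding protein follistatin, had 25, 32 and 20 counts in tumor sphere shCtrl and 12, 8 and 12 counts in tumor sphere shSigma libraries, a log2 fold change of -1.33 (q = 0.00259). It had 16, 10 and 16 and 9, 4 and 9 counts in the adherent groups, where it was too low to be tested. BAMBI, a pseudoreceptor without a kinase domain, had 1.61, 1.10 and 0.750 CPM in adherent shCtrl and 1.81, 1.95 and 1.35 CPM in adherent shSigma libraries. Its tumor sphere levels were 0.586, 0.663 and 0.252 CPM in shCtrl and 1.31, 1.22 and 0.636 CPM in shSigma libraries. These groups overlapped in both cultures, and BAMBI was called higher in tumor spheres only, at 1.09 (q = 0.0299), against 0.49 (q = 0.245) in adherent cells. That call was lost without tumor sphere shSigma replicate 1 (0.91, q = 0.102), shSigma replicate 2 (0.98, q = 0.0996) and shCtrl replicate 3 (0.76, q = 0.12). In adherent cells BAMBI passed the test without shCtrl replicate 1 (0.88, q = 0.0378).

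All 10 receptors differed by less than 1 on the log2 scale. In adherent cells 1 of the 10 was higher and 3 were lower, and in tumor spheres 2 were higher and 1 was lower, where 50% and 61.1% of all genes tested were called in either direction. The receptors had log2 fold changes between -0.62 and 0.67 in adherent cells and between -0.53 and 0.32 in tumor spheres. BMPR2, the type II receptor of BMPs, rose from 70.0 ± 3.17 to 116 ± 7.56 CPM in adherent cells (log2 ratio 0.67, q = 1.51e-04) and from 88.2 ± 3.34 to 111 ± 7.62 CPM in tumor spheres (log2 ratio 0.32, q = 9.36e-04). ACVR2B, a type II receptor of activins, fell from 30.3 ± 3.08 to 20.5 ± 0.972 CPM (log2 ratio -0.62, q = 0.00122) and from 20.3 ± 1.36 to 14.1 ± 1.27 CPM (log2 ratio -0.53, q = 5.73e-04). The 40 tested genes nearest to ACVR2B on chromosome 3 had medians of -0.36 and -0.50. TGFBR2, the type II receptor of TGF-beta and also on chromosome 3, had -0.0067 (q = 0.938) and 0.11 (q = 0.117), where its 40 neighbours had medians of -0.65 and -0.51. With the GC trend removed TGFBR2 was called higher, at 0.11 (q = 0.0305) and 0.14 (q = 0.0356), and in tumor spheres it was called without shCtrl replicate 1 (0.16, q = 0.0354). ACVR1, a type I receptor of BMPs, and TGFBR3, the coreceptor betaglycan, fell in adherent cells, at -0.35 (q = 0.00835) and -0.41 (q = 0.0202). The call of ACVR1 was lost without shSigma replicate 1 (-0.27, q = 0.109), shSigma replicate 2 (-0.24, q = 0.113), shCtrl replicate 1 (-0.25, q = 0.0737) and shCtrl replicate 2 (-0.31, q = 0.0738). The call of TGFBR3 was lost without shSigma replicate 1 (-0.28, q = 0.216), shSigma replicate 2 (-0.33, q = 0.157), shCtrl replicate 2 (-0.35, q = 0.148) and shCtrl replicate 3 (-0.37, q = 0.0527). TGFBR1, the type I receptor of TGF-beta, rose in tumor spheres at 0.18 (q = 0.0187), and this call was lost without shSigma replicate 2 (0.17, q = 0.0572), shSigma replicate 3 (0.18, q = 0.0573) and shCtrl replicate 3 (0.17, q = 0.0521). The intervals of ACVR1B were -0.26 to 0.10 and -0.26 to 0.027, those of ACVR2A -0.41 to 0.015 and -0.27 to 0.20, those of BMPR1A -0.37 to 0.011 and -0.12 to 0.15, and those of BMPR1B -0.47 to 0.42 and -0.22 to 0.75. Of these 4 receptors, which were not called, ACVR1B passed the test in tumor spheres without shCtrl replicate 2 (-0.17, q = 0.0408), and BMPR1B without shCtrl replicate 1 (0.55, q = 0.0370).

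Of the 6 signaling SMADs, SMAD3 and SMAD5 were called in opposite directions between the cultures, and SMAD9 was called in adherent cells only. SMAD9, a BMP-side SMAD also known as SMAD8, had 12.4, 13.9 and 13.1 CPM in adherent shCtrl and 26.4, 23.3 and 26.7 CPM in adherent shSigma libraries. Tumor sphere levels were 8.26, 8.72 and 10.1 CPM in shCtrl and 7.01, 7.58 and 7.89 CPM in shSigma libraries. Its groups did not overlap in either culture, and it rose in adherent cells, at 0.89 (SE 0.0933, q = 2.18e-04), but had -0.28 (SE 0.118, q = 0.0613) in tumor spheres. Without tumor sphere shCtrl replicate 1 (-0.33, q = 0.0449) it was called lower there. SMAD5, another BMP-side SMAD, rose in adherent cells at 0.29 (q = 0.00598) and fell in tumor spheres at -0.26 (q = 8.08e-04). SMAD3 of the TGF-beta side had 213, 235 and 222 CPM in adherent shCtrl and 195, 191 and 209 CPM in adherent shSigma libraries. Its tumor sphere levels were 98.7, 97.7 and 103 CPM in shCtrl and 116, 115 and 112 CPM in shSigma libraries. SMAD3 was called lower in adherent cells, at -0.23 (q = 0.0142), and higher in tumor spheres, at 0.20 (q = 0.00656). The adherent call was lost without shSigma replicate 1 (-0.16, q = 0.243), shSigma replicate 2 (-0.14, q = 0.230), shCtrl replicate 1 (-0.21, q = 0.0737) and shCtrl replicate 2 (-0.14, q = 0.286). In tumor spheres SMAD1, SMAD2 and the common partner SMAD4 rose by 0.48 (q = 1.26e-04), 0.24 (q = 0.00117) and 0.18 (q = 0.0427). The call of SMAD4 was lost without shSigma replicate 2 (0.14, q = 0.164), shSigma replicate 3 (0.16, q = 0.122), shCtrl replicate 1 (0.16, q = 0.0992) and shCtrl replicate 3 (0.16, q = 0.123). In adherent cells these 3 genes had 0.14 (q = 0.252), 0.15 (q = 0.144) and 0.17 (q = 0.0977), and all 3 were called higher with the GC trend removed, at 0.28 (q = 0.00970), 0.28 (q = 2.64e-04) and 0.29 (q = 0.00217). SMAD4 was also called in adherent cells without shSigma replicate 2 (0.29, q = 0.0324).

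Of the 6 intracellular inhibitors of the pathway, 4 were called higher after knockdown in adherent cells and 5 in tumor spheres, where 22.3% and 30.2% of all genes tested were called higher, and 0 were called lower in either culture. SMAD6 (ENSG00000137834, chromosome 15, 66702236 to 66782849), whose promoter is shown above, had 5.53, 4.57 and 5.72 CPM in adherent shCtrl and 11.7, 12.3 and 12.2 CPM in adherent shSigma libraries. The tumor sphere libraries had 1.64, 1.33 and 1.01 CPM in shCtrl and 4.44, 4.03 and 3.71 CPM in shSigma libraries. SMAD6 rose by 1.13 (SE 0.123, q = 2.56e-04) in adherent cells and by 1.62 (SE 0.198, q = 2.35e-05) in tumor spheres, or 2.19-fold and 3.08-fold. SMAD7 (ENSG00000101665, chromosome 18, 48919853 to 48950965) had 3.61, 4.82 and 4.22 CPM in adherent shCtrl and 9.09, 7.73 and 9.31 CPM in adherent shSigma libraries. In tumor spheres these were 1.87, 2.59 and 2.07 CPM in shCtrl and 5.95, 8.16 and 7.05 CPM in shSigma libraries. It rose by 0.98 (SE 0.145, q = 0.00108) and 1.69 (SE 0.176, q = 6.77e-06), and neither SMAD6 nor SMAD7 had overlapping groups in either culture. Both stayed called under every alternative run for these comparisons, with q of 2.15e-07 to 0.00551 and 1.80e-09 to 2.55e-04 for SMAD6 and 2.50e-05 to 0.0128 and 1.30e-12 to 9.14e-05 for SMAD7. SKIL, which encodes the SMAD corepressor SnoN, rose by 0.67 (q = 6.92e-04) and 0.43 (q = 7.45e-04). SKI, the related corepressor, rose in tumor spheres by 0.51 (q = 3.32e-04) and had 0.22 (q = 0.376) in adherent cells. SMURF1, a ubiquitin ligase that targets BMP-side SMADs, rose by 0.64 (q = 2.42e-04) and 0.56 (q = 1.41e-05). The 40 tested genes nearest to SMURF1 on chromosome 7 had medians of 0.63 and 0.58, beside its own change. SMURF2, the related ligase, had -0.19 (q = 0.0848) and -7.78e-04 (q = 0.992), and in adherent cells it was called lower without shCtrl replicate 3 (-0.27, q = 0.0110).

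Of the ID genes, ID1 and ID2 were measured well enough to compare. ID1 (ENSG00000125968, chromosome 20, 31605283 to 31606515) had 51.4, 56.1 and 77.4 CPM in adherent shCtrl and 111, 111 and 64.6 CPM in adherent shSigma libraries, where shSigma replicate 3 lay within the shCtrl range. In tumor spheres it had 8.26, 6.13 and 7.16 CPM in shCtrl and 9.88, 8.64 and 8.11 CPM in shSigma libraries, which overlapped. Its log2 fold changes of 0.58 (SE 0.268, q = 0.122) and 0.30 (SE 0.135, q = 0.0688) did not pass the test. ID1 was called higher without adherent shSigma replicate 3 (0.81, q = 0.00465), without tumor sphere shCtrl replicate 1 (0.42, q = 0.0234), and in adherent cells with the GC trend removed, at 0.40 (q = 0.0268). ID2 (ENSG00000115738, chromosome 2, 8678845 to 8684461) had 34.4, 31.1 and 30.1 CPM in adherent shCtrl and 34.6, 34.1 and 32.8 CPM in adherent shSigma libraries. Tumor sphere levels were 1.70, 1.33 and 0.857 CPM in shCtrl and 2.47, 2.07 and 3.02 CPM in shSigma libraries, without overlap. ID2 rose in tumor spheres by 0.97 (SE 0.253, q = 0.00551) and had 0.024 (SE 0.0942, q = 0.849) in adherent cells.

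Tumor spheres were compared with adherent cells in each hairpin line. ID1, ID2, SMAD6, SMAD3, SMURF2, TGFB2 and BMP6 were lower in tumor spheres of both lines, and CHRD, LTBP1, LTBP3, GDF11 and TGFBR2 were higher in both. In shCtrl cells 14 of 38 genes were higher and 13 lower in tumor spheres, 71.1% against 53.7% of all genes tested (27.4% higher, 26.3% lower). In shSigma cells 13 of 37 were higher and 11 lower, 64.9% against 47.1% (21.9% higher, 25.2% lower). Groups did not overlap for 28 and 27 genes, where this held for 62.7% and 60.8% of all genes. An absolute log2 fold change over 1 was also reached by 7 higher and 8 lower genes in shCtrl cells and by 5 higher and 6 lower genes in shSigma cells, where 15.8% and 9.32% of all genes passed both thresholds. The median log2 fold change was 0.046 and 0.011, beside 0.037 and 0.0025 over all genes tested. With the GC trend removed, 17 genes were higher and 14 lower in shCtrl and 14 higher and 14 lower in shSigma tumor spheres. Each of these comparisons shares libraries with the knockdown comparisons, and medium, attachment and growth form differ together between the cultures.

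ID1 and ID2 had the lowest log2 fold changes in tumor spheres among the tested genes of the 43. ID1 was lower at -3.10 (SE 0.192, q = 1.71e-05) in shCtrl and -3.41 (SE 0.278, q = 3.86e-04) in shSigma cells, and ID2 at -4.63 (SE 0.195, q = 1.51e-06) and -3.72 (SE 0.134, q = 1.41e-06), which is 8.59-fold and 10.6-fold lower for ID1 and 24.8-fold and 13.2-fold lower for ID2. Every tumor sphere library lay below every adherent library of its hairpin line for both genes, as the values above show. Without the GC trend the differences were -3.47 (q = 4.08e-10) and -3.66 (q = 3.32e-06) for ID1 and -4.76 (q = 6.53e-09) and -3.77 (q = 2.84e-10) for ID2. The inhibitor SMAD6 was lower as well, at -2.00 (SE 0.204, q = 1.17e-04) and -1.55 (SE 0.109, q = 3.30e-05). SMAD7 was lower in shCtrl cells, at -0.95 (SE 0.187, q = 0.00350), and had -0.28 (SE 0.141, q = 0.131) in shSigma cells, where it was called lower with the GC trend removed, at -0.49 (q = 0.0202). SMURF2 had 180.2, 175 and 158 CPM in adherent and 78.8, 75.4 and 73.1 CPM in tumor sphere shCtrl libraries, and 151, 149 and 171 CPM and 72.3, 78.9 and 76.4 CPM in the shSigma libraries. It was lower in tumor spheres in both lines, at -1.18 (q = 7.15e-06) and -1.03 (q = 1.30e-05). SKIL and SMURF1 were called slightly higher in shCtrl tumor spheres, at 0.22 (q = 0.0488) and 0.25 (q = 0.0321). The SKIL call was lost when any 1 of the 6 libraries was left out, with q of up to 0.288. That of SMURF1 was lost without adherent shCtrl replicate 1 (0.18, q = 0.114), adherent shCtrl replicate 2 (0.23, q = 0.123), tumor sphere shCtrl replicate 1 (0.19, q = 0.159) and tumor sphere shCtrl replicate 3 (0.20, q = 0.153). SMURF1 was called in shSigma cells without adherent shSigma replicate 3 (0.15, q = 0.0246), where its value from all libraries was 0.13 (q = 0.0716). SKI had -0.0081 (q = 0.974) and 0.25 (q = 0.152), and -0.53 (q = 7.27e-05) and -0.18 (q = 0.0175) with the GC trend removed.

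**Figure D3:**
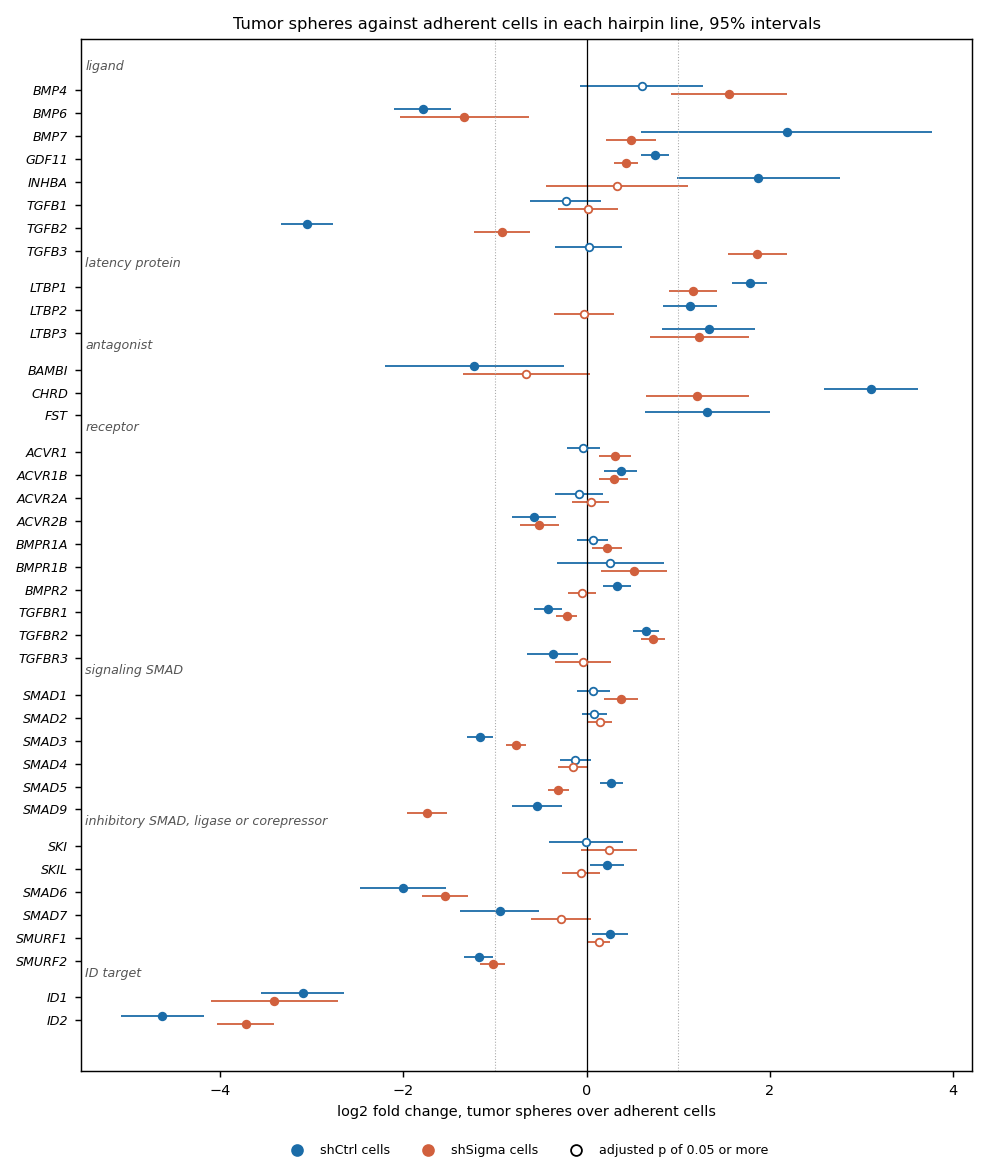
Log2 fold change of tumor spheres over adherent cells (x axis) for each tested gene (y axis, grouped by role) in shCtrl (blue) and shSigma cells (orange). Points are edgeR estimates, bars 95% intervals, open points have q of 0.05 or more, and dotted lines mark 1 and -1. ID1 and ID2 lie farthest to the left in both lines and CHRD farthest to the right in shCtrl cells.

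The signaling SMADs with the largest differences between cultures were SMAD3 and SMAD9, both lower in tumor spheres. SMAD3 was lower at -1.16 (SE 0.0608, q = 3.79e-06) in shCtrl and -0.77 (SE 0.0455, q = 1.32e-05) in shSigma cells. SMAD9 was lower at -0.54 (SE 0.117, q = 0.00549) and -1.74 (SE 0.0940, q = 8.78e-06). SMAD5 was higher in shCtrl and lower in shSigma tumor spheres, at 0.27 (q = 0.00352) and -0.31 (q = 0.00171), and the first call was lost without tumor sphere shCtrl replicate 1 (0.24, q = 0.0508). SMAD1 was higher in shSigma tumor spheres, at 0.38 (q = 0.00619), and had 0.075 (q = 0.454) in shCtrl cells. SMAD2 had 0.087 (q = 0.237) and 0.14 (q = 0.0805), and SMAD4 had -0.12 (q = 0.193) and -0.15 (q = 0.119). SMAD2 was called higher in shSigma cells without adherent shSigma replicate 3 (0.20, q = 0.00169). With the GC trend removed, SMAD2 was called higher in both lines, at 0.24 (q = 0.00153) and 0.26 (q = 1.52e-04), and SMAD1 in shCtrl cells as well, at 0.24 (q = 0.0176). Among receptors, TGFBR2 was higher in tumor spheres by 0.65 (q = 6.63e-05) and 0.73 (q = 5.23e-05), and ACVR1B, a type I activin receptor, by 0.37 (q = 0.00443) and 0.30 (q = 0.00869). TGFBR1 was lower at -0.42 (q = 0.00116) and -0.22 (q = 0.00799), and ACVR2B at -0.58 (q = 0.00219) and -0.52 (q = 0.00285). BMPR2 was higher in shCtrl tumor spheres, at 0.33 (q = 0.00346), with -0.047 (q = 0.579) in shSigma cells. TGFBR3 was lower in shCtrl tumor spheres, at -0.37 (q = 0.0304), and this call was lost without adherent shCtrl replicate 2 (-0.37, q = 0.0867), tumor sphere shCtrl replicate 2 (-0.37, q = 0.0740) and tumor sphere shCtrl replicate 3 (-0.36, q = 0.0844), and with the GC trend removed, at -0.22 (q = 0.135). In shSigma cells ACVR1, BMPR1A and BMPR1B were called higher in tumor spheres, at 0.31 (q = 0.0119), 0.22 (q = 0.0302) and 0.52 (q = 0.0278). The call of ACVR1 was lost without tumor sphere shSigma replicate 3 (0.28, q = 0.0539). Those of BMPR1A and BMPR1B were each lost in 5 of 6 fits that left out a library, with q of up to 0.0952 and 0.0753. The call of BMPR1A stayed only without adherent shSigma replicate 3, and that of BMPR1B only without tumor sphere shSigma replicate 1.

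Ligands and their extracellular partners differed in both directions between the cultures. TGFB2 was lower in tumor spheres, at -3.05 (SE 0.12, q = 1.28e-06) in shCtrl and -0.93 (SE 0.133, q = 0.00105) in shSigma cells, and BMP6 was lower at -1.79 (SE 0.136, q = 2.55e-05) and -1.34 (SE 0.305, q = 0.00874). TGFB3 was higher in shSigma tumor spheres, by 1.86 (SE 0.139, q = 4.24e-05), and had 0.025 (q = 0.906) in shCtrl cells. GDF11 was higher by 0.75 (q = 5.99e-05) and 0.43 (q = 6.62e-04), and BMP4 was higher in shSigma tumor spheres by 1.55 (q = 0.00276). In shCtrl cells BMP4 had 0.60 (q = 0.113) and was called higher without tumor sphere shCtrl replicate 1 (0.80, q = 0.0440). INHBA was higher in shCtrl tumor spheres, at 1.88 (q = 0.00432), with 0.33 (q = 0.434) in shSigma cells. BMP7 was called higher in both lines, at 2.19 (q = 0.0285) and 0.48 (q = 0.0121), and the first call, which rests on 14 counts in adherent shCtrl cells, was lost without tumor sphere shCtrl replicate 2 (2.30, q = 0.0546) and tumor sphere shCtrl replicate 3 (1.81, q = 0.0968). CHRD was higher by 3.11 (SE 0.225, q = 1.96e-05) and 1.21 (SE 0.239, q = 0.00572), or 2.42 (q = 2.99e-08) and 0.63 (q = 0.00114) with the GC trend removed. LTBP1 was higher by 1.78 (SE 0.0827, q = 2.15e-06) and 1.16 (SE 0.112, q = 1.52e-04), and LTBP3 by 1.33 (SE 0.213, q = 0.00205) and 1.23 (SE 0.217, q = 0.00661). Without the GC trend LTBP3 had 0.45 (q = 1.77e-04) and 0.45 (q = 2.47e-05). LTBP2 was higher in shCtrl tumor spheres by 1.13 (SE 0.128, q = 2.07e-04), and FST by 1.32 (q = 0.00642). BAMBI was lower there at -1.22 (q = 0.0393), and this call was lost without adherent shCtrl replicate 1 (-0.94, q = 0.0798), adherent shCtrl replicate 2 (-1.26, q = 0.0830), tumor sphere shCtrl replicate 1 (-1.39, q = 0.0568) and tumor sphere shCtrl replicate 3 (-0.92, q = 0.113). In shSigma cells BAMBI had -0.66 (q = 0.103) and was called lower without adherent shSigma replicate 3 (-0.82, q = 0.0196). TGFB1 had -0.23 (q = 0.278) and 0.011 (q = 0.950), and was called lower in both lines with the GC trend removed, at -0.87 (q = 1.52e-06) and -0.54 (q = 4.96e-05). It was also called lower in shCtrl cells without adherent shCtrl replicate 1 (-0.42, q = 0.0134).

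**Figure D4:**
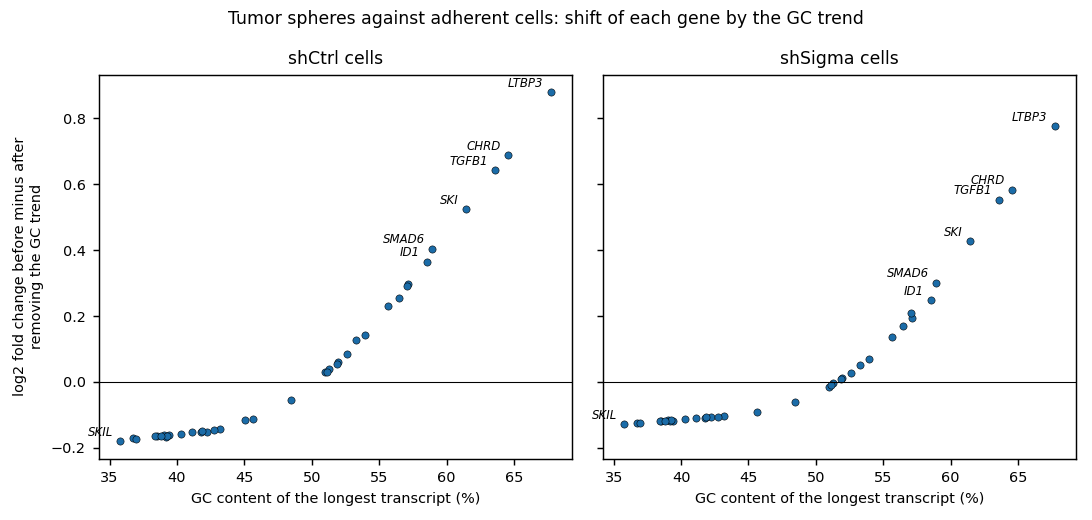
Change in the log2 fold change of tumor spheres over adherent cells when a GC trend is removed from each library (y axis, before minus after) against the GC content of the longest transcript in percent (x axis), for each tested gene (points) in shCtrl (left) and shSigma cells (right). Genes of high GC content, such as LTBP3, CHRD, TGFB1 and SKI, lie above 0, so their log2 fold change is less positive or more negative after removal. Genes of low GC content lie slightly below 0.

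Whether the knockdown effect differed between the 2 cultures was tested with an interaction term fitted to all 12 libraries, which gives the log2 change in tumor spheres minus that in adherent cells. It had q under 0.05 for 13 of 38 genes, 34.2% against 28.4% of all genes tested, with 4 positive and 9 negative calls, where 12.7% and 15.6% of all genes had one, and 7 of them over 1 in size, where 8.54% of all genes were. The number of positive calls was 10 without adherent shSigma replicate 3 and 8 without adherent shCtrl replicate 1, the libraries whose deviations had the lowest rho with GC content. It was 9 with the GC trend removed from all libraries. The largest positive values were those of TGFB2, 2.10 (SE 0.188, q = 2.41e-06), and TGFB3, 1.81 (SE 0.214, q = 3.21e-05), the ligands whose changes had opposite signs. CHRD had -1.92 (SE 0.336, q = 9.52e-04), LTBP2 -1.18 (SE 0.187, q = 3.97e-04) and SMAD9 -1.22 (SE 0.148, q = 4.01e-05). ID2 had 0.89 (q = 0.0142), SMAD3 0.37 (q = 0.00430), SMAD5 -0.60 (q = 9.40e-05), LTBP1 -0.65 (q = 0.00563), BMPR2 -0.40 (q = 0.00809) and GDF11 -0.34 (q = 0.0121). The calls of BMP7, -1.73 (q = 0.0444), and INHBA, -1.56 (q = 0.0420), rest on few counts in adherent shCtrl cells. The call of BMP7 was lost in 10 of the 12 fits that left out 1 library, with q of up to 0.149, and stayed without adherent shCtrl replicate 3 and tumor sphere shCtrl replicate 1. That of INHBA was lost in 9 of 12, with q of up to 0.133, and stayed without adherent shSigma replicate 2, tumor sphere shSigma replicate 1 and tumor sphere shCtrl replicate 1. That of GDF11 was lost in 8 of 12, with q of up to 0.0648, and stayed without adherent shSigma replicate 2, adherent shCtrl replicate 1, adherent shCtrl replicate 3 and tumor sphere shSigma replicate 3. An interaction was not called for the 6 intracellular inhibitors, with values of 0.43 (q = 0.172) for SMAD6 and 0.64 (q = 0.0585) for SMAD7. The interval of the difference was -0.048 to 0.91 for SMAD6 and 0.13 to 1.15 for SMAD7. SMAD7 passed the test without adherent shSigma replicate 3 (0.76, q = 0.0327), adherent shCtrl replicate 1 (0.80, q = 0.0230), tumor sphere shSigma replicate 1 (0.78, q = 0.0298) and tumor sphere shCtrl replicate 2 (0.84, q = 0.0234). With the GC trend removed, the interaction was also called for SMAD7, SKI, SKIL, SMAD1, ACVR1 and TGFB1, at 0.73 (q = 0.0343), 0.32 (q = 0.00745), -0.33 (q = 0.0112), 0.26 (q = 0.0493), 0.30 (q = 0.00918) and 0.28 (q = 0.0406). ACVR1 lay at the threshold, with 0.32 (q = 0.0502), and was called without adherent shSigma replicate 3 (0.44, q = 0.00758), adherent shCtrl replicate 1 (0.35, q = 0.0259), adherent shCtrl replicate 3 (0.38, q = 0.0398), tumor sphere shSigma replicate 1 (0.40, q = 0.0340) and tumor sphere shCtrl replicate 2 (0.43, q = 0.0202). Calls also appeared for SMAD1 without adherent shSigma replicate 3 (0.41, q = 0.0113) and adherent shCtrl replicate 1 (0.34, q = 0.0358), for TGFBR1 without adherent shSigma replicate 3 (0.28, q = 0.0189) and adherent shCtrl replicate 1 (0.25, q = 0.0391), for BMPR1A without adherent shSigma replicate 3 (0.29, q = 0.0322) and for SMURF2 without adherent shSigma replicate 3 (0.26, q = 0.0474).

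**Figure D5:**
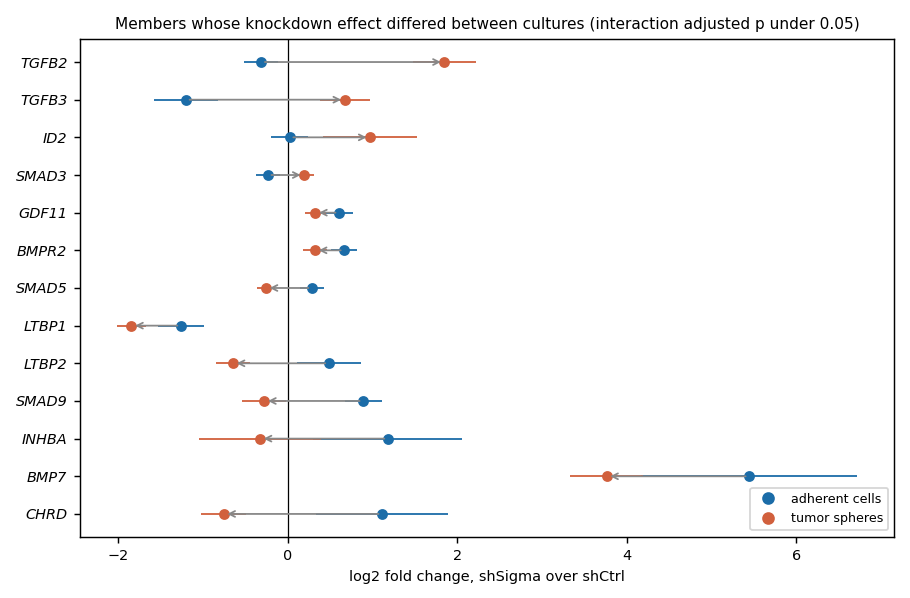
Log2 fold change of shSigma over shCtrl (x axis) in adherent cells (blue) and tumor spheres (orange) for the 13 genes (y axis) with an interaction of q under 0.05. Points are edgeR estimates from each culture, bars 95% intervals, and arrows run from adherent cells to tumor spheres. TGFB2 and TGFB3 cross 0 to the right, and CHRD and LTBP2 cross it to the left.

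A list of 100 further pathway genes, made of other ligands, receptors, antagonists, activators, intracellular regulators and known targets, was examined in the same fits. After knockdown 16 of 65 tested genes were higher and 18 lower in adherent cells (52.3% called), and 30 of 67 were higher and 18 lower in tumor spheres (71.6%). The backgrounds are those given above for all genes. Of 12 BMP targets, 8 were tested, with 2 higher and 1 lower in adherent cells and 4 higher and 0 lower in tumor spheres. Of the higher ones, 1 in adherent cells and 3 in tumor spheres changed by over 1 on the log2 scale. Over all genes tested, 13.7% and 13.1% were called and changed by over 1 in either direction. RUNX3 is not among these BMP targets over 1. RUNX3, a RUNX transcription factor, had -0.50 (q = 0.00832) and 0.65 (q = 3.84e-05), and the first call was lost without adherent shCtrl replicate 2 (-0.41, q = 0.0513). Of 16 TGF-beta targets, 6 of 16 tested were higher and 3 lower in adherent cells, and 8 of 15 were higher and 5 lower in tumor spheres. CCN2, a matricellular protein, had 37.6 ± 1.70, 24.2 ± 1.74, 7.30 ± 0.821 and 33.1 ± 4.14 CPM in adherent shCtrl, adherent shSigma, tumor sphere shCtrl and tumor sphere shSigma cells. It fell in adherent cells (log2 ratio -0.70, q = 2.75e-04) and rose in tumor spheres (log2 ratio 2.17, q = 3.81e-08), with an interaction of 2.82 (q = 2.84e-08). FN1, which encodes fibronectin, rose by 1.00 (q = 2.82e-05) and 2.29 (q = 4.34e-10), and TGFBI, a TGF-beta-induced matrix protein, by 0.26 (q = 0.00936) and 1.19 (q = 9.11e-06). ANGPTL4, a secreted lipase inhibitor, fell at -3.88 (q = 1.25e-04) and -2.04 (q = 8.21e-06), and CDKN1A, the cell cycle inhibitor p21, fell in tumor spheres at -0.84 (q = 8.97e-06) with 0.19 (q = 0.140) in adherent cells.

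Among the extracellular regulators of that list, THBS1, the TGF-beta activator thrombospondin 1, rose by 0.51 (q = 0.00295) in adherent cells and 2.74 (q = 2.69e-11) in tumor spheres. It had 75.0 ± 10.1, 112 ± 3.78, 25.7 ± 1.00 and 172 ± 5.67 CPM in the 4 groups, in the order above. BMPER, a BMP-binding protein, rose by 1.05 (q = 5.82e-04) and 4.25 (q = 9.91e-09), from 0.398 ± 0.102 to 7.72 ± 0.504 CPM in tumor spheres. CRIM1, a BMP-binding membrane protein, was lower in adherent cells (log2 ratio -0.44, q = 0.00102) and higher in tumor spheres (log2 ratio 0.68, q = 6.98e-07). FSTL3, a follistatin relative, rose by 1.05 (q = 0.00153) and 0.34 (q = 0.0117), the latter 0.050 (q = 0.675) with the GC trend removed, and FSTL1 fell at -1.05 (q = 1.42e-04) and -2.10 (q = 7.00e-08). GDF15, a distant member of the ligand family induced by cell stress, had 18.9 ± 5.72 CPM in tumor sphere shCtrl and 1.33 ± 0.225 CPM in tumor sphere shSigma cells (log2 ratio -3.81, q = 1.73e-06), and 0.174 ± 0.0609 and 0.132 ± 0.0629 CPM in adherent cells. TGIF2, a homeodomain corepressor of SMADs, fell at -1.05 (q = 9.23e-05) and -0.76 (q = 2.61e-05). In tumor spheres against adherent cells, TGFBI was lower at -2.41 (q = 1.44e-07) in shCtrl and -1.51 (q = 1.44e-04) in shSigma cells, TPM1, a tropomyosin, at -1.36 (q = 4.16e-06) and -1.77 (q = 2.66e-06), and NBL1, a DAN-family BMP antagonist, was higher by 2.29 (q = 7.87e-06) and 2.83 (q = 2.11e-04). JUNB, an AP-1 factor, was higher by 1.91 (q = 0.00644) and 2.12 (q = 0.00944), LTBP4 by 1.25 (q = 0.0335) and 1.47 (q = 0.0450), and COL1A1, a collagen chain, by 2.12 (q = 0.00129) and 1.43 (q = 0.00232). Without the GC trend all 6 genes kept their direction and call in both lines, with JUNB at 1.23 (q = 0.00127) and 1.53 (q = 0.00417), LTBP4 at 0.50 (q = 0.0236) and 0.83 (q = 0.0375), NBL1 at 1.76 (q = 3.03e-08) and 2.41 (q = 2.84e-10) and COL1A1 at 1.61 (q = 2.38e-06) and 1.00 (q = 8.09e-05). The LTBP4 call was lost in shCtrl cells without adherent shCtrl replicate 2 (1.16, q = 0.104), tumor sphere shCtrl replicate 1 (1.10, q = 0.126) and tumor sphere shCtrl replicate 3 (1.18, q = 0.103). In shSigma cells it was lost without adherent shSigma replicate 1 (1.60, q = 0.0946), tumor sphere shSigma replicate 1 (1.32, q = 0.115), tumor sphere shSigma replicate 2 (1.51, q = 0.0911) and tumor sphere shSigma replicate 3 (1.58, q = 0.0797). FBN1, which encodes the matrix protein fibrillin 1, had 6.03 ± 0.235, 2.73 ± 0.467, 2.07 ± 0.138 and 2.18 ± 0.492 CPM in the 4 groups, with log2 fold changes after knockdown of -1.20 (q = 4.03e-04) and 0.066 (q = 0.798). PCSK6, a proprotein convertase, had -0.38 (q = 0.0105) and 0.20 (q = 0.0216), and SPHK1, a sphingosine kinase, had -0.28 (q = 0.663), or -0.64 (q = 0.0132) with the GC trend removed, and -0.90 (q = 3.69e-05). The PCSK6 calls were lost without adherent shSigma replicate 1 (-0.32, q = 0.0904), adherent shSigma replicate 2 (-0.33, q = 0.0722) and adherent shCtrl replicate 2 (-0.31, q = 0.0964), and without tumor sphere shSigma replicate 2 (0.20, q = 0.0626), tumor sphere shSigma replicate 3 (0.16, q = 0.0990) and tumor sphere shCtrl replicate 2 (0.16, q = 0.0536). Exons of NBL1, PCSK6 and FSTL1 overlap those of MICOS10, SNRPA1 and MIR198 on the same strand, so their counts are less certain.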

How the data were processed

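RNA-seq libraries of DU145 cells, prepared from 800 ng of total RNA with a directional kit and read as single ends of 75 nt, were analysed from the raw gene counts that the authors deposited. Per the submitters' processing notes, reads were aligned with STAR 2.6.1c to GRCh38.p12, and DESeq is named. The annotation used for counting, its strand setting and what was done with multi-mapped reads are not given in the sources used here. Samples were grouped by hairpin and culture as the labels give them, and 0 columns were left unused.

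Each comparison was fitted on its 2 groups, and the interaction on all 12 libraries, with the quasi-likelihood test of edgeR 4.0.16 (R 4.3.3) after TMM scaling and filterByExpr with a minimum count of 10, at edgeR's default prior count. P-values were adjusted by Benjamini and Hochberg across every gene in the fit (q). Genes with q under 0.05 were called. CPM are counts scaled to the TMM effective library size over all 12 libraries. Depth was 16472722 to 26957777 counts per library, so that 3 counts are 0.115 to 0.176 CPM. Scripts were tested on simulated data.

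Alternatives were the Wald test of DESeq2 1.42.0, DESeq2 size factors in edgeR, no filter on low counts, the replicate number as a block, 1 fit of all 12 libraries, leaving out each library, q under 0.01 and, chosen after seeing the data, removal of a GC trend from each library as offsets. Gene positions, exon lengths and GC content came from GENCODE v44, and neighbours were the 40 nearest tested genes on the chromosome. All 43 genes were named, those called with an absolute log2 fold change over 1 and the ID genes with values of each library. Other pathway genes were named if called with an absolute log2 fold change over 1 in any comparison and at 5 CPM or more in the higher group. The genes, the lists and the rule were chosen with earlier results of these data known. The targeted gene and 1 other gene the rule names are not reported here.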

Additional observations from a re-analysis of the deposited data

Results flagged for a closer look

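For 13 genes the knockdown effect differed between tumor spheres and adherent cells by the interaction term over all 12 libraries, given here as the log2 fold change in tumor spheres minus that in adherent cells. TGFB2 had 2.10, TGFB3 had 1.81, ID2 had 0.89 and SMAD3 had 0.37, all positive. CHRD had -1.92, BMP7 had -1.73, INHBA had -1.56, SMAD9 had -1.22 and LTBP2 had -1.18. LTBP1 had -0.65, SMAD5 had -0.60, BMPR2 had -0.40 and GDF11 had -0.34. The share of 34.2% stands beside 28.4% of all genes tested, and the values of BMP7, INHBA and GDF11 lost significance in most of the fits that left out 1 library.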

How the results depend on the processing

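With the GC trend removed, an alternative chosen after seeing the data, 3 values changed sign and were called: TGFBR2 after knockdown in adherent cells (0.11), and TGFB1 (-0.54) and SKI (-0.18) in tumor spheres against adherent shSigma cells. Of 188 log2 fold changes of the 43 genes, 163 kept their side of the threshold and, where called, their direction under that alternative. Values not called in either fit may have changed sign among these. A further 20 passed the threshold newly and 2 no longer passed it. The same held for 171 of 188 with the DESeq2 Wald test, 184 with DESeq2 size factors, 178 without the filter on low counts and 139 of 150 with 1 fit of all 12 libraries. Samples were not treated as pairs by replicate number, since the deviations of same-numbered libraries correlated at -0.817 to 0.379 with 3 of 12 over 0.1. These deviations also followed GC content, so the correlations cannot exclude a pairing. With the replicate number as a block, 172 of 188 values kept their call, and 12 genes (4 of them lower) were called after knockdown in adherent cells in place of 20 (8 lower). There, 5 genes were called lower by DESeq2 and 5 at q under 0.01. Leaving out 1 library gave 13 to 22 called and 4 to 8 lower genes in this comparison, and 4 to 10 positive interactions. Positive interactions numbered 7 without the filter and 9 with the GC trend removed, where 14 of the further pathway genes had a negative one in place of 9. At q under 0.01, 16 of the further pathway genes had an interaction (12 positive, 4 negative), and 11 were higher in shCtrl tumor spheres in place of 18. The causes were not tested. Depth limits BMP7 and INHBA in adherent shCtrl cells, and BMP2, INHBB, GREM1, ID3 and ID4 in all groups.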
